A study of Mus musculus with 32 samples.

Results

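*Mt1*, *Mt2* and *Mt3* encode metallothioneins, and their RNA was followed in skeletal muscle of wild-type (WT) and *Mtm1* knockout (KO) mice. These are 3 of the 54838 genes in the count table, taken by symbol, and all 3 were measured in all 32 libraries. The study asked how muscle gene expression diverges between the genotypes as a model of X-linked myotubular myopathy ages. Bulk RNA of the tibialis anterior (TA) muscle, labelled as skeletal muscle, was sequenced at postnatal day 1 (P1), P14, P21 and P35, with n=4 WT and n=4 KO at each age and no other treatment. All mice were on the C57BL6/J strain. The KO mice lacked exon 4 of *Mtm1*, which encodes the lipid phosphatase myotubularin, from a line first made on another strain. The deletion is carried in the whole animal and is not limited to muscle. Food was also placed on the cage floor, in part as a gel diet, as disease advanced.

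Metallothioneins are short proteins rich in cysteine, and these cysteines hold zinc and copper ions. *Mt1* and *Mt2* are made in most tissues, and zinc raises their transcription through the zinc-sensing factor MTF1, which binds metal response elements in their promoters. Glucocorticoids, acute-phase cytokines and oxidative stress also raise *Mt1* and *Mt2*, and both transcripts are known to rise in wasting muscle. *Mt3* is best known from brain, where its protein was first described as a growth inhibitory factor, and *Mt4* from stratified epithelium such as skin.

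*Mt1*, *Mt2* and *Mt3* were selected on measured values of these data, the KO against WT expression differences, with those results already known. Their KO against WT values, and their change with age in KO mice, are given as a description with no test. Changes with age in WT muscle, ratios between the genes in WT muscle and the values of other genes were tested. Levels are in counts per 1000000 counts of a TMM-scaled library (CPM) on 1 scale over all 32 libraries, and log2 fold changes with their standard errors (SE) are from pairwise edgeR fits over the whole table.

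The 4 mouse metallothionein genes lie together on the plus strand of chromosome 8 (GRCm38), each with 3 exons. *Mt4* (ENSMUSG00000031757) spans chr8:94137197-94139031, *Mt3* (ENSMUSG00000031760) chr8:94152607-94154146, *Mt2* (ENSMUSG00000031762) chr8:94172664-94173568 and *Mt1* (ENSMUSG00000031765) chr8:94179082-94180327. The antisense gene *Gm45774*, chr8:94170748-94173412 on the minus strand, overlaps *Mt2*. Use of the strand in counting is not given in the sources used here, so reads of *Mt2* and *Gm45774* cannot be told apart with certainty. *Gm45774* was at or below 0.39 CPM in all libraries.

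The coding sequences of the 3 genes show the family's hallmark and how far the copies differ, with cysteine codons (TGC or TGT) in capitals in GRCm38 reference sequence.
*Mt1*: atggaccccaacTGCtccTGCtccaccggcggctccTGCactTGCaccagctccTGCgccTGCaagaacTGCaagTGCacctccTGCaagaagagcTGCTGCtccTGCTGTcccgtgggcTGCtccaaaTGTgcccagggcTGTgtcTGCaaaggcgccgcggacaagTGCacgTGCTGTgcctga
*Mt2*: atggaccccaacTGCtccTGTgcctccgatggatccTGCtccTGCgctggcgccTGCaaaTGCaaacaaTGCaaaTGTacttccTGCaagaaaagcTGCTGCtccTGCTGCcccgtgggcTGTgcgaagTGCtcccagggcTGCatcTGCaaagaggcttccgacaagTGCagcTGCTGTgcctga
*Mt3*: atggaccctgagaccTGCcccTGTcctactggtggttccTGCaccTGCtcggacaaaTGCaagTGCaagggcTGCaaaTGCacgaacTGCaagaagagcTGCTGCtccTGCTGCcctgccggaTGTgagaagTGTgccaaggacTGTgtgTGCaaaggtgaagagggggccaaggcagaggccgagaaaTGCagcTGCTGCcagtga
Each holds 20 cysteine codons, among 61 codons in *Mt1* and *Mt2* and 68 in *Mt3*. *Mt1* and *Mt2* were identical at 79.6% of aligned bases, *Mt1* and *Mt3* at 66.2%, and *Mt2* and *Mt3* at 67.6%. The longest exact run shared by any pair was 27 bases, between *Mt1* and *Mt3*. All 128 values of *Mt1* to *Mt4* in the table were whole numbers (0 departed by more than 1e-06), so the table shows no read shared among them by fractions.

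The promoters are shown because the windows around the 3 starts held different numbers of metal response element cores. Each window runs from 250 bases before the RefSeq start to 50 after it (GRCm38.p6, plus strand), and capitals mark the element core TGCACNC or TGCGCNC, searched on both strands. All 3 genes matched a RefSeq promoter.
*Mt1* (chr8:94178839-94179138): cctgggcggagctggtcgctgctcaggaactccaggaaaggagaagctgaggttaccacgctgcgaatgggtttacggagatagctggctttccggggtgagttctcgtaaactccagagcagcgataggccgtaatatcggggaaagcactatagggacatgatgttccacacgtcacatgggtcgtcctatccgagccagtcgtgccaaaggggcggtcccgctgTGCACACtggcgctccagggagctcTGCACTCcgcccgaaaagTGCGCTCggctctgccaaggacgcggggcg
*Mt2* (chr8:94172368-94172667): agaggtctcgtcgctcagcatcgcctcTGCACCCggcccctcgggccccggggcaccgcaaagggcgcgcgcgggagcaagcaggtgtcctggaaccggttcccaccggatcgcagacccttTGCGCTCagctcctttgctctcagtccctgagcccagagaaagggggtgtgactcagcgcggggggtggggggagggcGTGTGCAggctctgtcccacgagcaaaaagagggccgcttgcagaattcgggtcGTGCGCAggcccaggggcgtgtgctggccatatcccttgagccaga
*Mt3* (chr8:94152357-94152656): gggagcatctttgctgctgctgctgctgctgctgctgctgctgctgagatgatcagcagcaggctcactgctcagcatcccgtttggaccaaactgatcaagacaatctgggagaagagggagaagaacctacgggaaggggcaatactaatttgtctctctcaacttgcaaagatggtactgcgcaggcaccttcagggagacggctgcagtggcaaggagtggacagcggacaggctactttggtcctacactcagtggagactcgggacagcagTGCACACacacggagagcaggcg
The *Mt1* window held 3 cores, a number reached by 1.97% of 32851 promoter windows of the same length. The *Mt2* window held 4, spread over both strands, and 0.52% of windows have at least as many. A single core stood in the *Mt3* window, where 25.7% of windows have at least 1. Of the 3 windows, that of *Mt2* alone also held a match to the antioxidant response element TGACNNNGC, found in 12.4% of windows. The *Mt3* window opened with a run of 11 CTG units, and 0.02% of windows have a run as long. Neither the glucocorticoid receptor element AGAACA (19.0% of windows) nor the STAT site TTCNNNGAA (8.3%) was in any of the 3 windows. Such matches describe letters in a window and say nothing of binding in muscle. They depend on where the RefSeq start places the window, and bases outside it were not searched. Some cores lay after that start, at bases 3 to 9 and 21 to 27 for *Mt1* and 5 to 11 for *Mt2*. The single *Mt3* core lay at bases 28 to 34, also after the start.

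Library totals ran from 49321035 to 85631408 counts. *Mtm1* itself was lower in every KO library than in any WT library of the same age, at 2.32 to 3.91 against 5.26 to 6.02 CPM at P1 and 2.64 to 4.51 against 18.9 to 24.9 CPM from P14 on. The highest KO value at P1 was that of replicate 4. All 6 skeletal muscle markers were detected in all 8 groups, with a summed level of 18900 to 182000 CPM.

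In WT muscle, *Mt1* and *Mt2* were high at P1 and fell by P14. *Mt1* stood at 42.2, 48.2, 40.1 and 50.4 CPM in the 4 WT libraries at P1 and at 5.11, 4.68, 10.2 and 15.8 CPM at P14. The ages did not overlap. Its level fell by 2.35 on the log2 scale (SE 0.347, 5.11-fold lower, edgeR adjusted *P*=0.000152), and was lower in 4 of 4 libraries. *Mt2* read 28.9, 35.4, 30.4 and 43.4 CPM at P1 against 2.70, 2.88, 9.12 and 12.1 CPM at P14. Again without overlap, it fell by 2.39 on the log2 scale (SE 0.448, 5.23-fold lower, edgeR adjusted *P*=0.000757). Both falls were called, meaning an adjusted *P*-value under 0.01 and a fold over 1.5, as were 55.1% of 17435 genes tested between these ages, 30.4% of the genes tested being called lower. Of all genes, 39.9% had every P14 library below every P1 library. With library totals in place of TMM scaling the median of all genes moved from −0.080 to −0.849, and both falls held relative to it, at −3.17 for *Mt1* and −3.21 for *Mt2*. The make-up of the WT samples also changed between these ages. Keratinocyte markers summed to 2260 to 7120 CPM at P1 and 14.8 to 20.4 CPM at P14. Muscle markers summed to 27700 to 36000 and 128000 to 167000 CPM. The part of this change in both falls was not tested.

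*Mt3* did not share this early fall. Its 4 WT libraries read 4.92, 1.91, 1.59 and 3.35 CPM at P1 and 3.63, 3.24, 3.30 and 3.30 CPM at P14. The log2 difference was 0.18 (SE 0.316, edgeR adjusted *P*=0.603), and −0.59 (SE 0.335, adjusted *P*=0.123) with library totals, so no direction is given. At P21 *Mt3* read 1.28, 1.2, 1.64 and 0.668 CPM, all below the P14 libraries. It fell by 1.5 on the log2 scale (SE 0.230, 2.83-fold lower, edgeR adjusted *P*=0.0026), in a comparison in which 5.53% of 15337 genes were called, 2.6% lower, and 13.2% lay lower without overlap. The adjusted *P*-value rose to 0.0154 when replicate numbers were blocked, to 0.0116 in 1 fit of all 32 libraries and to 0.0114 without WT P14 replicate 1, each above 0.01 and so no longer a call.

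*Mt1* and *Mt2* gave no call after P14 in WT muscle. From P14 to P21 the log2 difference was 0.19 (SE 0.391, edgeR adjusted *P*=0.75) for *Mt1* and −1.2 (SE 0.506, adjusted *P*=0.109) for *Mt2*. From P21 to P35 it was 0.49 (SE 0.409, edgeR adjusted *P*=0.421) for *Mt1*, 1.61 (SE 0.684, adjusted *P*=0.13) for *Mt2* (0.29 without WT P35 replicate 1) and 0.28 (SE 0.317, adjusted *P*=0.563) for *Mt3*, where 2.45% of 15039 genes were called. The *Mt1* differences turn sign when single libraries are left out, to −0.03 without WT P14 replicate 2 and to −0.06 without WT P35 replicate 1.

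**Figure D1:**
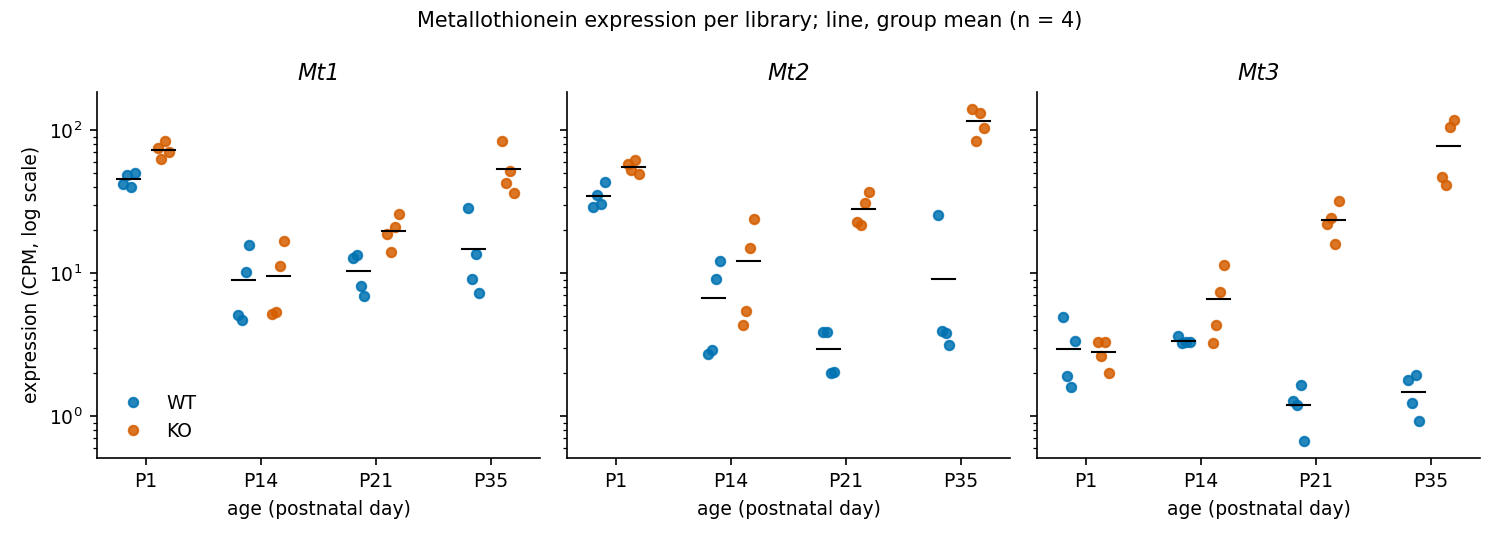
Level of *Mt1*, *Mt2* and *Mt3* (CPM, log axis) in each of the 32 libraries by age (postnatal day); blue points are WT, orange points KO, and each line is the mean of 4 libraries. KO points lie above all WT points for *Mt1* and *Mt2* at P1 and for all 3 genes at P21 and P35, where *Mt3* reaches 118 CPM in KO against at most 1.95 in WT.

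At P1, *Mt1* and *Mt2* were higher in KO than in WT muscle by about the same fold, and *Mt3* was not. *Mt1* in the KO libraries was at 75.1, 62.6, 83.8 and 69.6 CPM, against the WT range of 40.1 to 50.4 CPM. This is a log2 fold change of 0.70 (SE 0.107), or 1.63-fold. *Mt2* in KO was at 57.8, 52.8, 61.6 and 49.5 CPM, against 28.9 to 43.4 CPM in WT, a log2 fold change of 0.70 (SE 0.129), or 1.62-fold. For both genes the genotypes did not overlap, as was so, with KO above WT, for 3.85% of 18100 genes at this age. *Mt3* in KO read 3.29, 2.63, 3.28 and 1.99 CPM, within the WT range, with a log2 difference of −0.06 (SE 0.346). Its sign varied as single libraries were left out, from −0.27 to 0.30.

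At P14 the libraries of *Mt1* and *Mt2* were spread widely within each genotype. *Mt1* in KO stood at 5.16, 5.38, 11.2 and 16.7 CPM, close to the WT libraries of the same number. The log2 difference was 0.10 (SE 0.489), and 0.10 (SE 0.0613) with replicate number as a block. For *Mt2* the KO libraries held 4.32, 5.42, 15 and 23.7 CPM, and the log2 difference was 0.85 (SE 0.654), or 0.82 (SE 0.0706) with the block. Taken by replicate number, KO over WT was 1.01, 1.15, 1.10 and 1.05 for *Mt1* and 1.60, 1.88, 1.64 and 1.95 for *Mt2*. In both genotypes, replicates 3 and 4 were the high libraries. The labels do not pair WT and KO libraries by number. The smaller SE with the block therefore rests on a likeness seen in these same data.

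*Mt3* in KO at P14 read 3.26, 4.36, 7.40 and 11.3 CPM, and 3 of the 4 lay above the highest WT library. The log2 difference was 0.96 (SE 0.343), or 0.82 (SE 0.245) with the block, and the same-number ratios spread from 0.897 to 3.43. No member was without overlap at this age, when 3.28% of 15728 genes had every KO library above every WT library.

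By P21 the 3 genes had separated from WT in the order *Mt3*, *Mt2*, *Mt1*. *Mt3* read 22, 24.2, 16 and 32.1 CPM in KO, when every WT library was at or below 1.64 CPM. This is a log2 fold change of 4.30 (SE 0.285), or 19.8-fold, the 16th highest among 15179 genes. *Mt2* read 22.7, 21.7, 30.7 and 36.9 CPM in KO where the WT libraries were at 3.86, 3.86, 2.0 and 2.05 CPM. The difference was 3.26 (SE 0.268) on the log2 scale, or 9.61-fold. *Mt1* had the smallest fold. Its KO libraries were at 18.6, 14.0, 20.9 and 25.8 CPM and its WT libraries at 12.7, 13.4, 8.16 and 6.96 CPM. The difference was 0.96 (SE 0.237) on the log2 scale, or 1.94-fold. KO lay above WT without overlap for all 3, and for 13.7% of all genes tested.

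At P35 the KO values were higher again. The *Mt3* level of the KO libraries was 47.0, 41.0, 105 and 118 CPM (2816, 2780, 6840 and 6624 counts). The WT libraries were at 1.78, 1.24, 1.95 and 0.922 CPM (73, 53, 82 and 40 counts). The log2 fold change was 5.75 (SE 0.439), or 53.6-fold, the 13th highest among 15595 genes. KO replicates 3 and 4 were well above the other KO libraries, and all were far above WT.

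*Mt2* in KO at P35 read 141, 84.0, 132 and 103 CPM, and its 28545 counts over the group compare with 19060 for *Mt3* and 13282 for *Mt1*. In WT it was at 25.3, 3.91, 3.82 and 3.16 CPM, so that replicate 1 stood far above the other WT libraries. The log2 fold change was 3.69 (SE 0.670), or 12.9-fold, and 5.01 (SE 0.221) without that library. *Mt1* read 84.0, 42.3, 51.3 and 36.1 CPM in KO libraries. In WT libraries it read 28.6, 9.13, 13.5 and 7.22 CPM, with a log2 fold change of 1.90 (SE 0.431), or 3.72-fold. Again KO lay above WT without overlap for all 3 genes, and for 19.2% of all genes tested. With library totals the median of all genes moved from 0.035 to 0.439 at P35, and the 3 differences stayed above it, at 2.30 or more.

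**Figure D2:**
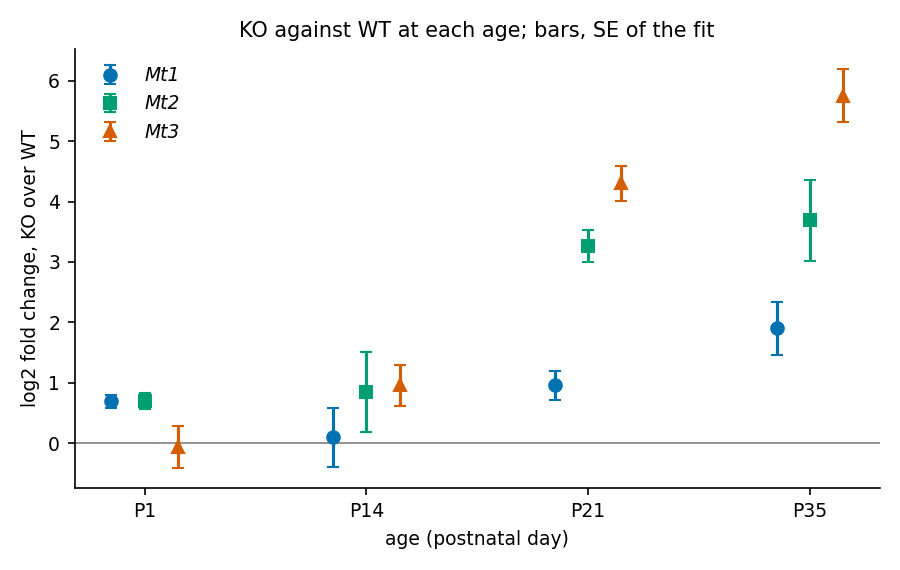
Log2 fold change of KO over WT for *Mt1* (circles), *Mt2* (squares) and *Mt3* (triangles) at each age (postnatal day), n=4 per genotype; bars are the SE of the fit. *Mt3* goes from −0.06 at P1 to 5.75 at P35, while *Mt1* and *Mt2* both stand at 0.70 at P1 and at 1.90 and 3.69 at P35, after 0.10 and 0.85 at P14.

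Seen across age within KO muscle, *Mt1* and *Mt2* were also lower at P14 than at P1 and were higher again from P21. From P1 to P14 the log2 difference was −2.95 (SE 0.356) for *Mt1* and −2.23 (SE 0.468) for *Mt2*, whereas *Mt3* was 1.2 (SE 0.358) higher, or 0.45 with library totals. From P14 to P21 the values were 1.04 (SE 0.364) for *Mt1*, 1.21 (SE 0.480) for *Mt2* and 1.83 (SE 0.362) for *Mt3*. From P21 to P35 they were 1.45 (SE 0.273), 2.05 (SE 0.212) and 1.73 (SE 0.358), with all P35 libraries above all P21 libraries for each gene, as for 12.5% of all genes in that comparison. On the TMM scale *Mt2* and *Mt3* stood above their P1 range in every KO library at P35. The lowest values of 84.0 and 41.0 CPM were above the highest P1 values of 61.6 and 3.29 CPM. *Mt1* at P35, at 36.1 to 84.0 CPM, overlapped its P1 range of 62.6 to 83.8 CPM. Per library total only the *Mt3* reading held. *Mt2* in KO P35 replicate 2 (5698 of 64618117 counts) was then below KO P1 replicate 1 (7692 of 85631408). The highest *Mt1* value at P35 (5034 of 61025222) was then below the lowest at P1 (6804 of 71227418). The age comparisons share libraries with each other and with the genotype comparisons, so each is given by its own values.

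The balance between *Mt1* and *Mt2*, which needs no scaling between libraries, lay apart between the genotypes at P21 and P35. Between adjacent WT ages no change in this balance had an adjusted *P*-value under 0.05 by exact permutation test. In WT muscle the number of *Mt2* counts per *Mt1* count averaged 0.760 ± 0.0738 (SD, n=4) in newborn mice (P1), 0.699 ± 0.161 by P14, 0.283 ± 0.0257 by P21 and 0.508 ± 0.260 by P35. From P14 to P21 the log2 ratio fell by 1.28, lower in 4 of 4 libraries (exact permutation test, two-sided, *P*=0.0286, the smallest this design allows, and 0.0857 adjusted over 3 tests). The steps from P1 to P14 (−0.14, exact permutation *P*=0.486, adjusted 0.486) and from P21 to P35 (0.72, exact permutation *P*=0.114, adjusted 0.171) were within the spread of the libraries.

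In KO muscle the same ratio went from 0.765 ± 0.0576 (SD, n=4) at P1, where the genotypes overlapped, to 1.15 ± 0.273 by P14, 1.42 ± 0.140 by P21 and 2.27 ± 0.537 by P35. The KO range of 1.22 to 1.56 at P21 lay wholly above the WT range of 0.246 to 0.304. At P35 the ranges were 1.68 to 2.86 and 0.283 to 0.884, so every KO library held more *Mt2* than *Mt1* counts and every WT library fewer.

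Per transcript length, the genes can be compared with each other. At P1 the levels of *Mt1* and *Mt2* were 82.3 ± 8.90 and 67.6 ± 12.8 CPM per kb in WT, and *Mt3* was at 5.49 ± 2.85 CPM per kb (SD, n=4). At P14 the WT levels in the same gene order were 16.3 ± 9.53, 13.1 ± 9.17 and 6.28 ± 0.332 CPM per kb. *Mt1* was above *Mt2* in each WT library there, at 9.31, 8.52, 18.7 and 28.8 against 5.28, 5.63, 17.8 and 23.7 CPM per kb. With summed exons as the length their order turned, with means of 7.20 for *Mt1* and 11.4 for *Mt2*. *Mt3* was above *Mt2* per transcript length in replicates 1 and 2 and below it in replicates 3 and 4. At P21 the WT levels were 18.8 ± 5.86, 5.76 ± 2.07 and 2.24 ± 0.750 CPM per kb, and the KO levels were 36.1 ± 8.98, 54.8 ± 14.0 and 44.0 ± 12.4 CPM per kb. At P35 in KO they were 97.4 ± 38.9 for *Mt1*, 225 ± 51.3 for *Mt2* and 145 ± 73.4 CPM per kb for *Mt3*. *Mt3* made up 3.57 ± 2.0% of the summed level of the 3 genes in WT at P1, 7.55 ± 3.05% in WT at P35 and 30.5 ± 12.5% in KO at P35. The share of *Mt1* was 60.9 ± 8.07% in WT and 21.1 ± 7.22% in KO at P35, and that of *Mt2* 31.6 ± 11.1% and 48.4 ± 5.38%. These shares depend on the length given to each gene. With its summed exons as the length, *Mt2* and not *Mt1* came first in WT at P1 (59.9% against 37.3%). The shares of *Mt1* and *Mt2* in WT at P35 were then 46.8% and 46.5%. In KO the shares of *Mt1*, *Mt2* and *Mt3* were 18.5%, 55.4% and 26.1% at P21 and 13.9%, 63.0% and 23.1% at P35.

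**Figure D3:**
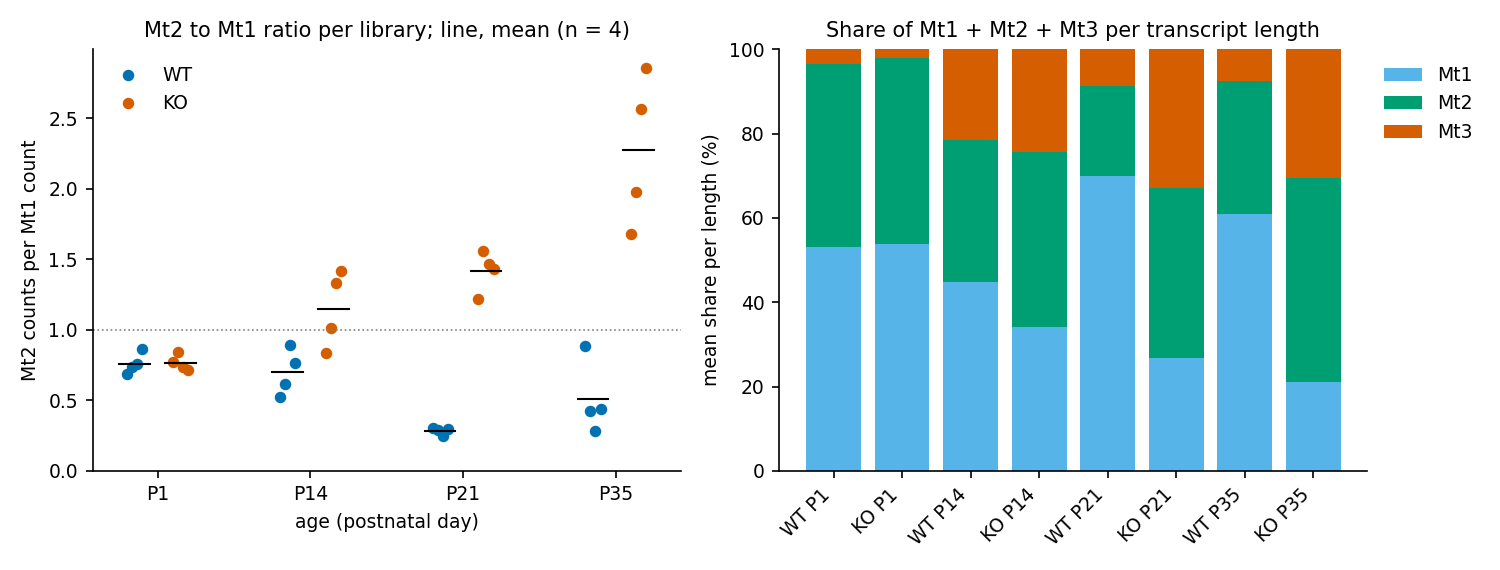
Left, *Mt2* counts per *Mt1* count in each library by age (postnatal day), WT blue and KO orange, with the mean of 4 libraries as a line; right, mean share (%) of each gene in the summed level of *Mt1*, *Mt2* and *Mt3* per transcript length, by group (n=4). The ratio is near 0.76 in both genotypes at P1 and 0.508 in WT against 2.27 in KO at P35, and the *Mt3* share is 30.5% in KO at P35.

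*Mt4*, the remaining gene of the cluster, gave few counts. Its totals over 4 libraries were 75 in WT and 103 in KO at P1, a CPM ratio of 1.22 (95% counting interval 0.896 to 1.66). At P14 and P21 WT held 0 counts and KO held 7 and 26, at least 2.15-fold and at least 7.68-fold higher when the WT group is set to a floor of 3 counts. At P35 the totals were 3 in WT and 124 in KO, a ratio of 28.1 (counting interval 9.39 to 138), and the KO libraries held 41, 23, 32 and 28. The antisense *Gm45774* was not tested at P14 and P21 and at P35 its log2 difference was 1.41 (SE 0.639, edgeR adjusted *P*=0.105).

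Smaller differences were measured in the genes flanking the cluster. Of the 3 nearest protein-coding genes on each side, *Bbs2*, a ciliary trafficking gene, was higher in KO at P21 (log2 fold change 0.73, SE 0.120, edgeR adjusted *P*=0.00368) and P35 (0.76, SE 0.154, adjusted *P*=0.00402). *Nup93*, a nuclear pore gene next to *Mt1*, was higher at P35 (0.79, SE 0.131, edgeR adjusted *P*=0.00143). *Nudt21*, *Ogfod1* and *Herpud1* were not called at any age, with log2 differences from −0.48 to 0.26, and *Slc12a3* was too low to test. At P21 and P35 4.67% and 16.0% of all genes tested were called.

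**Figure D4:**
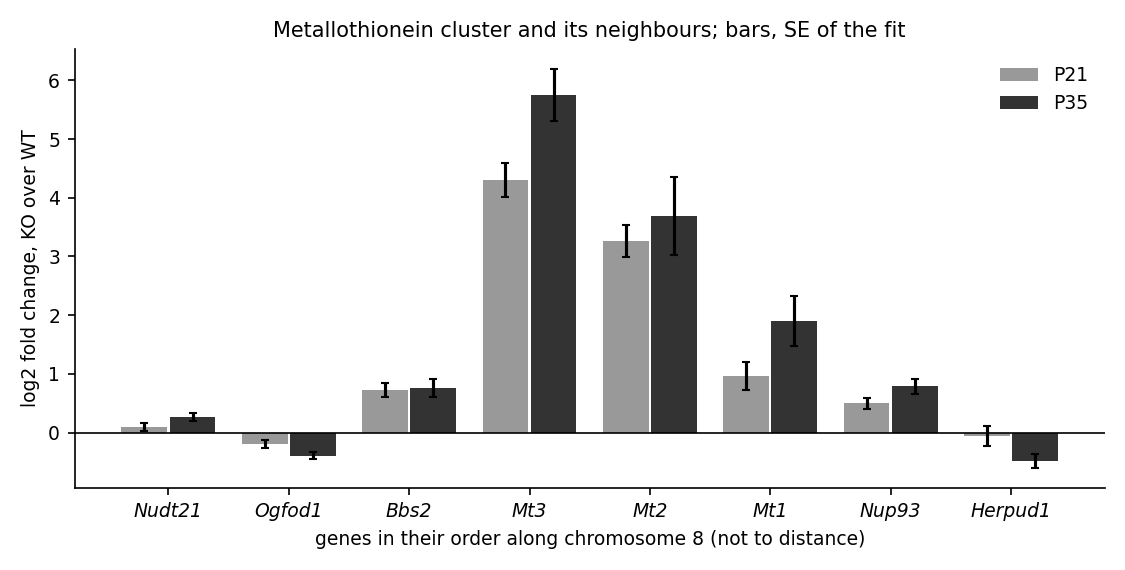
Log2 fold change of KO over WT at P21 (grey) and P35 (black) for *Mt3*, *Mt2* and *Mt1* and for tested neighbours, in gene order along chromosome 8 and not to distance; bars start at 0 and whiskers are the SE of the fit (n=4 per genotype). The 3 metallothioneins stand between 0.96 and 5.75, and the neighbours between −0.48 and 0.79.

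Genes that handle metals or act on metallothionein promoters were compared from 6 lists of 101 genes. *Mtf1*, the zinc-sensing activator, was not called between genotypes at any age, with log2 differences of −0.01, −0.10, −0.07 and −0.19 at P1, P14, P21 and P35 (edgeR adjusted *P*=0.986, 0.92, 0.552 and 0.0715). In WT it rose from P1 to P14, when *Mt1* and *Mt2* fell (log2 fold change 0.92, SE 0.0595, edgeR adjusted *P*=6.63e-07). Of 10 promoter regulators *Stat3*, a cytokine-activated factor, gave the single call over the 4 ages, at P21 (0.59, SE 0.0745, edgeR adjusted *P*=0.00109). Its fold of 1.51 was barely over the minimum of 1.5. Of all genes tested, 4.67% were called at P21 and 16.0% at P35, where none of these regulators was.

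Zinc and copper handling genes were called rarely. None of the 22 zinc transporters tested at P1, 19 at P14 and 19 at P21 was called, and at P35 1 of 19 was higher and 1 lower, with a list median of 0.03 beside 0.035 over all genes. *Slc39a6*, a zinc importer, was higher (log2 fold change 0.70, SE 0.136, edgeR adjusted *P*=0.00311) and *Slc30a2*, which loads zinc into vesicles, lower (−1.71, SE 0.284, adjusted *P*=0.00142). Among 13 copper genes at P35 none was higher and 2 were lower, the copper pump *Atp7a* (−1.01, SE 0.184, edgeR adjusted *P*=0.00222) and the cytochrome oxidase assembly gene *Sco2* (−0.70, SE 0.157, adjusted *P*=0.00653), with a median of −0.15. The share called in these lists at P35, 10.5% and 15.4%, was no higher than the 16.0% over all genes.

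Antioxidant targets of NRF2 gave calls in the upward direction at the late ages. At P21 3 of 17 were higher and none lower (17.6% beside 4.67% of all genes called in either direction, median 0.20 beside 0.008), namely *Srxn1* (0.96, SE 0.0882, edgeR adjusted *P*=0.000306), which repairs peroxiredoxins, the thioredoxin gene *Txn1* (0.68, SE 0.0889, adjusted *P*=0.0013) and the quinone reductase gene *Nqo1* (1.00, SE 0.191, adjusted *P*=0.00682). At P35 5 of 17 were higher and none lower (29.4% beside 16.0% of all genes, median 0.17), among them *Gsr* (0.64, SE 0.0880) and *Gpx1* (0.77, SE 0.114), enzymes of glutathione metabolism, and again *Txn1* (1.03, SE 0.163, edgeR adjusted *P*=0.00111). Of acute-phase and IL-6 genes at P35, 5 of 13 were higher and 1 lower (46.2% beside the same 16.0%, median 0.83). *Junb*, an immediate early factor, rose by 2.72 (SE 0.119, edgeR adjusted *P*=1.99e-06) and *Timp1*, a protease inhibitor, by 3.10 (SE 0.330, adjusted *P*=0.000188). The receptor gene *Lifr* fell by 0.98 (SE 0.133, edgeR adjusted *P*=0.000519). At P21 2 of 13 were higher and 1 lower (23.1% beside 4.67%, median 0.19).

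Glucocorticoid-responsive genes were the only list of the 6 with calls at P1. There 5 of 20 were higher and none lower (25.0%, median 0.61 beside 0.011 over all genes), when 0.0442% of all genes were called. They included *Zbtb16* (1.77, SE 0.119, edgeR adjusted *P*=0.00174), *Arrdc2* (1.11, SE 0.0972, adjusted *P*=0.00394) and *Klf9* (0.89, SE 0.0752, adjusted *P*=0.00394). This list was written knowing of some of these calls and is no independent evidence. The count of 5 over all lists at P1 was 0 without WT replicate 1, 2 or 4, 2 without WT replicate 3 or KO replicate 3, 3 without KO replicate 1 or 2, and 0 in 1 fit of 32 libraries. No listed gene was called at P14, when 0.0318% of all genes were, and 1072 genes were under an unadjusted *P*-value of 0.05. With the replicate block or DESeq2 1 listed gene was called there. At P21 only *Trim63*, a muscle ubiquitin ligase gene, was higher (1.36, SE 0.106, edgeR adjusted *P*=0.000142), or 5.0% of the 20 beside 4.67% of all genes. At P35 2 of 20 were higher and 3 lower (25.0% beside 16.0% of all genes, median −0.18). *Trim63* was higher (1.28, SE 0.133, edgeR adjusted *P*=0.000171) and *Hsd11b1*, which regenerates active glucocorticoid, lower (−2.0, SE 0.130, adjusted *P*=2.59e-05). Over all lists, 13 of 92 genes tested were higher and 7 lower at P35 (21.7% beside 16.0% of all genes), and 26 and 2 with library totals.

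Within groups, *Mt1* and *Mt2* varied together from library to library, and *Mt3* followed neither closely. After the mean of each of the 8 groups was subtracted from log2 CPM, Pearson's r over 32 libraries was 0.931 between *Mt1* and *Mt2*, the highest of 18582 genes for *Mt1*, and 0.911 without the 2 libraries farthest out. It was 0.354 between *Mt1* and *Mt3* and 0.391 between *Mt2* and *Mt3*. These points share library, dissection and depth, and the values are a description.

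**Figure D5:**
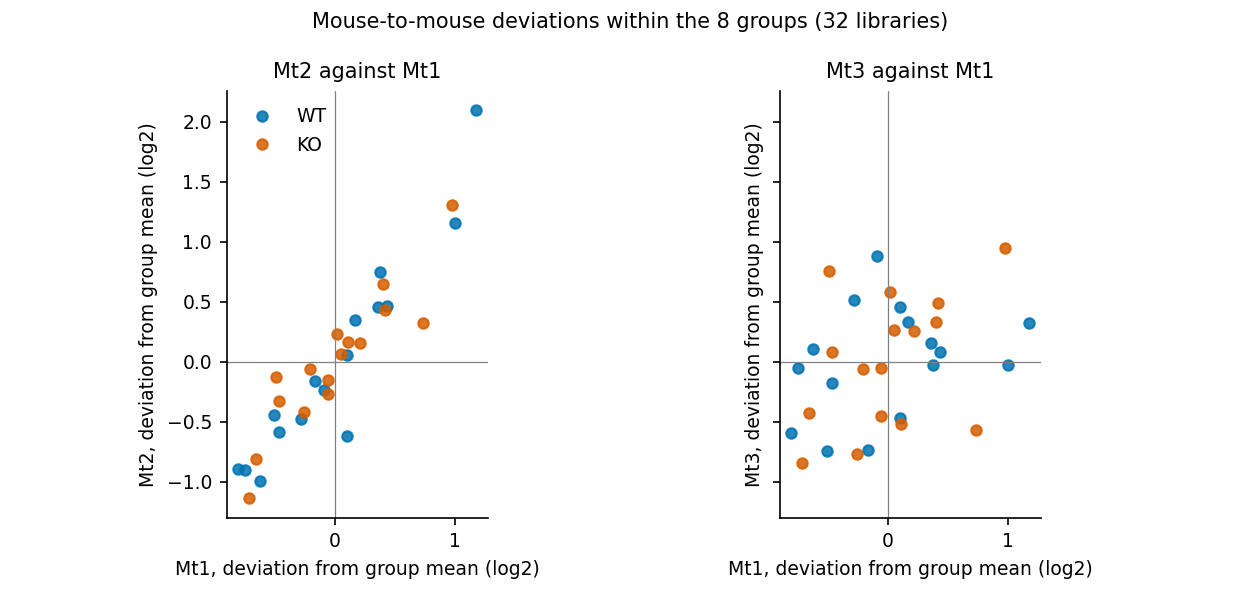
Deviation of each library from its group mean (log2) in *Mt2* (left) and *Mt3* (right) against that of *Mt1*, for 32 libraries, WT blue and KO orange. The *Mt2* points follow a rising line (r 0.931), with WT P35 replicate 1 at the upper end, and the *Mt3* points scatter (r 0.354).

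The genes whose deviations were most like those of *Mt1*, after *Mt2*, were *Hif3a* (r 0.922), *Arrdc2* (0.903), *Tsc22d3* (0.895) and *Ercc5* (0.895). For *Mt2* they were *Mt1*, *Gstm2* (0.867), *Ercc5* (0.856), *Foxo1* (0.855) and *Wbp1l* (0.854). *Tsc22d3*, a glucocorticoid-induced gene, read 129, 115, 201 and 269 CPM in the WT libraries at P14 and 107, 119, 188 and 277 CPM in the KO libraries, with the same high libraries as *Mt1*. Between genotypes at P1, *Tsc22d3* differed by 0.96 (SE 0.105, edgeR adjusted *P*=0.0133) and *Hif3a* by 0.91 (SE 0.156, adjusted *P*=0.0638), on the log2 scale. *Mt1* differed by 0.70 there, and *Tsc22d3* and *Hif3a* were not called. At P35 *Tsc22d3* differed by 0.00 (SE 0.400, edgeR adjusted *P*=0.998) and *Hif3a* by −1.13 (SE 0.610, adjusted *P*=0.163), where *Mt1* differed by 1.90.

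For *Mt3* the likeness was weaker and other genes led, namely *Vac14* (r 0.755), *Ostm1* (0.751), *Apol8* (0.725), *Sdsl* (0.699) and *Atp6v0c* (0.693). *Vac14* is a scaffold of the kinase that makes the phosphoinositide PI(3,5)P2, *Ostm1* a partner of a lysosomal chloride transporter and *Atp6v0c* a subunit of the proton pump of lysosomes. *Vac14* was higher in KO at P21 (log2 fold change 0.50, SE 0.0930, edgeR adjusted *P*=0.00589) and P35 (0.56, SE 0.0998, adjusted *P*=0.00206), under the fold of 1.5. *Ostm1* was lower, at −0.61 (SE 0.0815, edgeR adjusted *P*=0.0015) and −0.78 (SE 0.108, adjusted *P*=0.000575), opposite in sign to *Mt3* at the same ages.

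Markers of some other cell types differed between genotypes at the late ages. The summed level of 8 macrophage markers ranged over 108 to 130 CPM for WT libraries and 144 to 178 CPM for KO libraries at P21. At P35 it ranged over 107 to 132 and 141 to 211 CPM. Of these markers, 7 lay above WT without overlap at P21, beside 13.7% of all genes tested. At P35 5 lay above, beside 19.2% of all genes tested, and 1, *Mrc1*, below. The share of all genes lying below WT is not given here, so counts of markers below WT stand without it. None of 7 fibroblast markers was without overlap at P21 or P35. Of 6 erythroid markers, *Hbb-bt* and *Alas2* lay below WT at P21 and none was without overlap at P35. Of 12 keratinocyte markers, which would also mark the usual source of *Mt4*, only *Perp*, *Trp63* and *Sfn* lay above WT without overlap at both ages. All 12 together summed to 12.1 to 16.1 CPM for WT and 40.0 to 49.7 CPM for KO libraries at P21. At P35 they summed to 15.5 to 17.5 and 45 to 60.5 CPM. At P21 *Krt5*, *Krt15* and *Dsg3* were at 0 in WT, and *Krt1*, *Krt15* and *Dsg3* in KO. At P1 the keratinocyte sum was 2260 to 7120 CPM in WT mice, and in KO mice 1980 to 5860 CPM. The 8 adipocyte markers summed to 237 to 367 CPM for WT and 401 to 587 CPM for KO libraries at P35, and the 6 muscle markers to 94000 to 153000 and 62600 to 91400 CPM. At this age 6 adipocyte markers lay above WT without overlap, and 5 were called higher. Of the muscle markers *Acta1*, *Ckm* and *Ttn* lay below WT without overlap at P35, with *Acta1* called lower, and *Acta1* alone at P21. Schwann cell and glial markers, the cells nearest to the neural home of *Mt3*, overlapped between genotypes at each age (0 of 6 without overlap). The 6 endothelial markers summed to 554 to 850 CPM for WT and 437 to 532 CPM for KO libraries at P21. *Cdh5* and *Kdr* lay below WT without overlap at P21. At P35 the endothelial sums overlapped, at 318 to 599 and 285 to 357 CPM, and *Tek* and *Cdh5* were called lower in KO. At that age 16.0% of all genes tested were called in either direction. The mitochondrial share of counts was 9.75 to 12.0% for WT and 8.21 to 8.78% for KO libraries at P21, and 12.4 to 17.9% and 10.3 to 10.5% at P35. The part of these shifts in the metallothionein values was not tested, and in bulk RNA fewer cells of a type and less RNA per cell cannot be told apart.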

How the data were processed

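TA muscle RNA of 32 mice was measured by poly(A)-selected, strand-specific paired-end RNA sequencing, in libraries with an RNA integrity number cut-off of 8. The authors aligned reads to GRCm38 with STAR and deposited expected counts per gene, made with RSEM, unscaled and not pooled. Per the submitters' processing notes, versions were STAR 2.6.1 and RSEM 1.2.22, with DESeq2 also named, while HTSeq is the counter given in the methods. The annotation release used for counting is not given in the sources used here. The methods list the ages of 14, 21 and 35 days, and P1 and all groups were taken from the sample labels. The table held 0 columns that were not used. Totals were 49321035 to 85631408 counts per library, and intervals and floors (3 counts) cover counting error only, since reads carried no molecular identifiers. No 2 replicates agreed within sampling noise (smallest chi-square per degree of freedom 10.5). The labels number the libraries and do not tie them to litters or days, so *P*-values measure the spread between these samples.

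Of 54838 genes, 54723 were given a symbol from GENCODE M21. Expected counts were rounded. The two-sided quasi-likelihood test of edgeR 4.0.16 (R 4.3.3, glmQLFit with defaults) was run pairwise, as in the study, after filterByExpr and TMM scaling. *P*-values were adjusted by Benjamini-Hochberg across the whole tested table. A gene was called at an adjusted *P*-value under 0.01 and a fold over 1.5. CPM used TMM over 32 libraries, and log2 CPM a prior count of 2. Lengths were those of the annotated transcript numbered 201 (549 bases for *Mt1*, 511 for *Mt2*, 536 for *Mt3*). Ratios were compared by an exact permutation test (scipy 1.17.1). The fit was tested on simulated counts in which every gene was given the same variability between libraries. That setting does not cover genes that vary as much as *Mt2* did at P14 and P35.

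The members and gene lists were chosen with earlier results of these data known. Named genes were the members, *Mt4*, *Mtf1*, *Mtm1*, up to 3 called genes per list and age with the smallest adjusted *P*-values, the 3 nearest protein-coding genes on each side, and the 5 genes most like each member. *Perp*, *Trp63* and *Sfn*, and other single markers, were named after their values were seen. Likeness was Pearson's r of log2 CPM after subtracting group means. Same-numbered WT and KO libraries deviated together at P14 (r 0.19 to 0.59, every pair over 0.1) and not at P1 (−0.32 to 0.00), P21 (−0.01 to 0.19) or P35 (−0.08 to 0.17), so the replicate block is given beside the P14 values. Alternatives were DESeq2 1.42.0, its size factors in edgeR, library totals, no filter, at least 10 counts in every library, no rounding, 1 fit of 32 libraries, the block and leaving out each library, and, chosen after seeing the data, the summed exon length.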

Additional observations from a re-analysis of the deposited data

Results flagged for a closer look

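A library stood far from the other 3 of its group in 2 of the 32 sets of 4 values screened, which were the levels of *Mt1*, *Mt2* and *Mt3* and the *Mt2* to *Mt1* ratio in 8 groups. Chance alone picks out about 1 set in 20 by this measure. *Mt2* in WT P35 replicate 1 was at 25.3 CPM, with a gap to the next library of 0.966 of the group's range. That library was also the highest of 4 in 15 of 20 glucocorticoid-responsive genes (75.0%) and in 6 of 6 skeletal muscle markers, beside 31.0% of 18583 genes compared. *Tsc22d3* read 653 CPM there and 269 to 349 CPM in the other WT libraries at P35. *Mt3* in WT P14 replicate 1 was at 3.63 CPM beside 3.24 to 3.30 CPM, a gap of 0.844 of a narrow range.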

How the results depend on the processing

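Under other settings the sign turned in 11 repeats, of *Mt3* between genotypes at P1, *Mt1* between genotypes at P14, *Mt3* from P1 to P14 in WT and *Mt1* from P14 to P21 and from P21 to P35 in WT. A call of a member was lost in 3 repeats, all of *Mt3* from P14 to P21 in WT. With summed exons as the length, 17 of 24 shares per length moved by more than 1 SD between libraries. Without WT P35 replicate 1 the *Mt2* difference between genotypes at P35 was 5.01, and leaving out each library gave 3.40 to 5.01. Leaving out a library gave −0.02 to 0.55 for *Mt3* from P1 to P14 in WT, −0.03 to 0.63 for *Mt1* from P14 to P21, −1.68 to −1.29 for *Mt3* from P14 to P21 and −0.06 to 0.72 for *Mt1* from P21 to P35. Between genotypes it gave −0.31 to 0.52 for *Mt1* at P14 and −0.27 to 0.30 for *Mt3* at P1, where the block gave 0.04. Library totals, which lower the median of all genes from P1 to P14, gave −0.59 for *Mt3* in WT, and −3.71 for *Mt1* and 0.45 for *Mt3* in KO. In 1 fit of 32 libraries the WT *Mt3* fall from P14 to P21 was −1.49. DESeq2 gave no adjusted *P*-value for *Mt2* from P21 to P35 in WT.

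The replicate block gave −1.55 for that WT *Mt3* fall, with an edgeR adjusted *P*-value of 0.0154. Between genotypes at P14 the block gave 0.10, 0.82 and 0.82 for *Mt1*, *Mt2* and *Mt3*. Same-numbered libraries deviated together at that age, but the labels do not pair them. It changed no other call of a member.

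Listed genes called between genotypes numbered 5 of 97, 0 of 91, 8 of 92 and 20 of 92 tested at P1, P14, P21 and P35. These are 5.15%, 0%, 8.7% and 21.7%, beside 0.0442%, 0.0318%, 4.67% and 16.0% of all genes tested. DESeq2 gave 11 at P1 and 1 at P14, the block 1 at P1 and 1 at P14, and 1 fit of 32 libraries 0 at P1. An adjusted *P*-value under 0.05 with no fold minimum gave 9 at P1, 25 at P21 and 40 at P35. Leaving out a library gave 0 to 6 at P1, 5 to 8 at P21 (5 without WT replicate 1 or KO replicate 2) and 12 to 20 at P35 (12 without WT replicate 4). The cause of these shifts was not tested. Depth limits *Mt4*, with at most 41 counts in a library, and *Mt3* in WT, with as few as 28.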
